A study of Mus musculus with 4 samples.

Results

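Transcripts of 10 BCL2 family genes were measured in lung ILC2s cultured with the Orai channel blocker compound 5D or with vehicle. The genes were taken by name from a table of 22554 genes, and all 10 were present and passed the filter on low counts. They are the pro-survival genes Bcl2, Bcl2l1 and Mcl1, the effector genes Bax and Bak1, and the BH3-only genes Bcl2l11, Bbc3, Pmaip1, Bid and Bad. ILC2s are innate lymphocytes that answer alarm cytokines such as IL-33 with type 2 cytokines. The cells of all 4 libraries were sorted from lungs of BALB/c mice aged 6 weeks and kept overnight, by the labels, in IL-2, IL-7 and IL-33, so the vehicle cells too received cytokines that sustain lymphocytes. For this sequencing the paper's results name activated ILC2s cultured for 24 h with or without 5D. The study's general culture methods give 24 h with 5D, IL-2 and IL-7 before IL-33 is added. A 5D dose was chosen by titration for its cultures, but the dose of these libraries is not given in the sources used here. Each group has 2 libraries, and nothing in the sources used here says that they came from separate animals or cultures, so the p-values measure only the spread between these libraries.

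BCL2 family proteins govern the mitochondrial path of apoptosis. BAX and BAK open pores in the outer mitochondrial membrane and release cytochrome c, the pro-survival proteins BCL2, BCL-XL and MCL1 hold them in check, and BH3-only proteins respond to stress and shift that balance by binding either kind. In lymphocytes the signals of IL-2 and IL-7 through STAT5 are known to sustain BCL2 and MCL1, while loss of cytokine releases BIM. Much of the control of this family lies in protein binding, phosphorylation and turnover, which RNA does not show.

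The libraries held 20096555 to 23239853 counts with vehicle and 26912708 to 28697265 with 5D, so the 5D libraries were deeper. Values are normalized CPM, which are counts scaled to a fixed library total after upper quartile normalization, and the mean ± SD is over n = 2 libraries. All 13 ILC2 markers listed, among them Gata3, Il1rl1 and Il7r, were above 1 normalized CPM in each library, with sums of 10890 to 11100 with vehicle and 10230 to 10680 with 5D. A T cell list of 5 measured genes, with Cd4 at 0 counts, summed to 25.6 to 26.1 with vehicle and 27.2 to 27.7 with 5D. A list of 3 measured stroma and endothelium genes, with Col1a2 at 0, summed to 21.3 to 23.9 and 15.7 to 19.9, and 2 hemoglobin genes to 4.52 to 4.75 and 3.87 to 3.88. The other marker lists overlapped between the groups, and the part of these lists in the results below was not tested. Few genes led these sums, with Il5 and Il2ra for ILC2s, Cd3g for T cells and Pecam1 for stroma and endothelium. The ILC2 markers did not move together. Il5 and Il2ra were lower in both 5D libraries, Gata3 overlapped, and Il1rl1 was higher, at 675.6 and 732.0 against 666.6 and 627.1 with vehicle. In such bulk samples fewer cells of a type and less RNA per cell cannot be told apart.

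RNA levels of the BCL2 family differed little between 5D and vehicle, with Pmaip1 as the gene farthest apart. Of the 10 genes, 0 passed an adjusted p-value of 0.05 by edgeR's quasi-likelihood test, by limma-voom or by DESeq2, which gave an adjusted p-value for 5 of them and none for Bak1, Bcl2l11, Bbc3, Pmaip1 and Bid, against 0.0963% of the 17650 genes tested by edgeR. At an unadjusted p-value under 0.05 only Pmaip1 was called, which was higher with 5D, against 7.34% of all genes in either direction, 3.5% higher and 3.84% lower. In all, 4 genes were higher and 6 lower, and their median was -0.015 on the log2 scale beside -0.0016 over all genes tested. The median absolute log2 fold change was 0.072 for the family and 0.15 for all genes. Fold changes of genes with few counts scatter more, and the members lay at percentiles 44.8 to 96 of level among all genes tested. The 6 other gene lists described below had medians of 0.070 to 0.097, so a value under 0.15 was not particular to the family. The 2 groups did not overlap in 4 of the 10 genes, with 5D above in 2 and below in 2, close to the 37.6% of all genes tested that did not overlap.

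**Figure D1:**
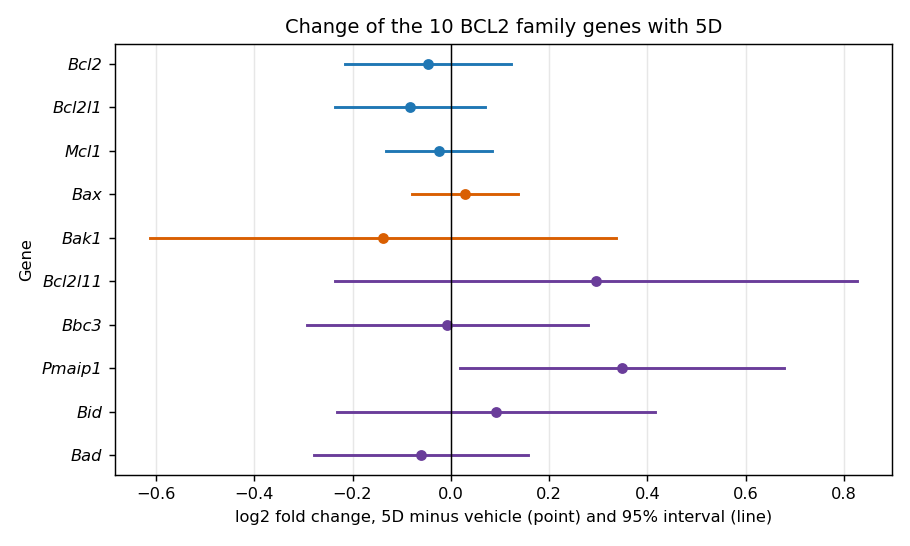
Log2 fold change of 5D against vehicle (x axis) for each of the 10 genes (y axis), with points for the estimate and lines for the 95% interval of edgeR's quasi-likelihood fit, in blue for pro-survival, orange for effector and purple for BH3-only genes. The intervals of Mcl1 and Bax are the narrowest, and that of Pmaip1 alone lies above 0.

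Levels between genes can be compared only per transcript length, and they spanned a wide range. Bax was the highest at 230.1 normalized CPM per kb of its longest transcript over the 4 libraries, followed by Mcl1 at 76.3, Bcl2l1 at 32.9 and Bad at 23.9. Lower were Bcl2 at 11.1, Bbc3 at 9.50, Pmaip1 at 5.9 and Bid at 5.50, and the lowest were Bak1 at 2.27 and Bcl2l11 at 1.21. Pmaip1 and Bid overlapped over the libraries and so have no set order, while the values of every other pair of neighbours did not overlap. The order was the same when the length of all exons of a gene was used, with Bax at 160.6 and Bcl2l11 at 0.757.

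**Figure D2:**
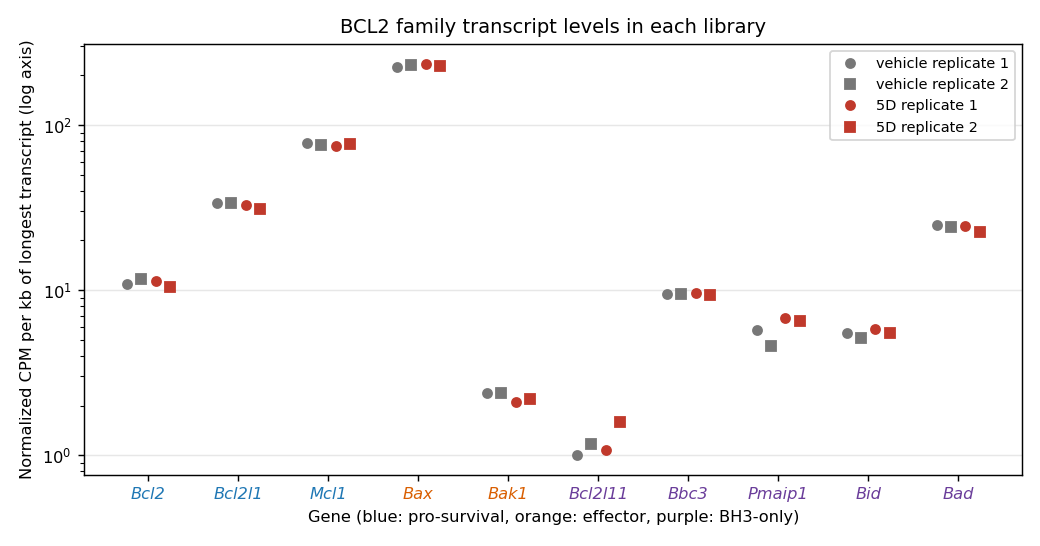
Normalized CPM per kb of the longest transcript on a log axis (y) for each gene (x), with 1 point per library, grey for vehicle and red for 5D, circles for replicate 1 and squares for replicate 2. Bax lies highest at 225.8 to 235.9 and Bcl2l11 lowest at 1.00 to 1.58, and the 4 points of most genes lie close together.

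Among the pro-survival genes, Mcl1, Bcl2l1 and Bcl2 were each slightly lower on average with 5D, with no call. Mcl1 (ENSMUSG00000038612.16, mm10 chr3:95658788-95663176, plus strand) encodes a short-lived protein that restrains BAK and BIM. Its normalized CPM was 265.0 and 260.5 with vehicle and 254.5 and 262.5 with 5D, so the groups overlapped. The means were 262.7 ± 3.19 and 258.5 ± 5.69, a log2 fold change of -0.024 ± 0.049 (SE) and an edgeR adjusted p of 0.959. The 95% interval ran from 0.913-fold to 1.06-fold, which is among the tightest limits in the family.

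Bcl2l1 (ENSMUSG00000007659.18, chr2:152780668-152831728, minus strand) encodes BCL-XL. It was at 86.97 and 86.6 with vehicle and at 83.97 and 79.91 with 5D, so the 5D values were the lower pair. The means were 86.8 ± 0.264 and 81.9 ± 2.87, a log2 fold change of -0.083 ± 0.070 (SE) and an edgeR adjusted p of 0.866, with an interval of 0.849-fold to 1.05-fold. The counting intervals of 82.6 to 90.8 for the second vehicle library and 80.6 to 87.5 for the 5D library nearest to it overlap. The gap between these nearest libraries was thus within counting error, which does not bound the difference between the group means.

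Bcl2 (ENSMUSG00000057329.7, chr1:106538178-106714274, minus strand) is the founding pro-survival gene. It was at 78.1 and 84.45 with vehicle and at 81.76 and 75.61 with 5D. The groups overlapped widely, and the highest and the lowest value came from a vehicle and a 5D library. The means were 81.3 ± 4.49 and 78.7 ± 4.35, a log2 fold change of -0.046 ± 0.077 (SE) and an edgeR adjusted p of 0.943 with an interval of 0.861-fold to 1.09-fold. The sign of Bcl2 turned when the second library of either group was left out. Exons of Bcl2 overlap D630008O14Rik on the opposite strand, and the sources used here do not say that strand was used in counting.

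NFAT factors are the best known route from Orai channels to transcription, so promoter windows of RefSeq on GRCm38.p6 were searched on both strands for the NFAT core GGAAA. The table had 15 windows of 300 bases for 9 of the members, with no entry for Pmaip1, and 11 of the 15 held the core, beside 61.3% of all 32851 windows. The STAT5 motif TTCNNNGAA, whose letters can overlap those of the core, was in 0 of the 15 windows and in 8.3% of all. Shown here are the 250 bases before the start of Mcl1 (chr3:95658471-95658720, plus strand) and of Bcl2l1 (chr2:152831729-152831978, minus strand), the highest pro-survival genes per length, with the core in capitals. For Mcl1 this RefSeq start lies 67 bases before that of GENCODE. The letters are a description of these windows and not of bound sites.
Mcl1: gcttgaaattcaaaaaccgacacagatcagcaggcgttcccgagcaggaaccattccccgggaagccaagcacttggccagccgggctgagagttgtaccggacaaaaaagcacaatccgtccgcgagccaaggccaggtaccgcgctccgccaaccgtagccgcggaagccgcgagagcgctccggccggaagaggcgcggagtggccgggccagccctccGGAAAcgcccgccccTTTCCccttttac
Bcl2l1: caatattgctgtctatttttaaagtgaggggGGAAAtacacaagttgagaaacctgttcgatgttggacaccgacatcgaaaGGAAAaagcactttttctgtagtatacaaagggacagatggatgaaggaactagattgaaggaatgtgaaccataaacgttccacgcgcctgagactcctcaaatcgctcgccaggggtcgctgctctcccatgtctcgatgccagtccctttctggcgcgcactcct
Each holds the core 2 times, and neither gene was called.

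Among the effectors, Bax was abundant and even across the libraries while Bak1 was scarce. Bax (ENSMUSG00000003873.11, chr7:45461697-45466898, minus strand) had 248.4 and 252.7 normalized CPM with vehicle and 259.5 and 251.8 with 5D, and the groups overlapped. The means were 250.6 ± 3.09 and 255.6 ± 5.44, a log2 fold change of 0.029 ± 0.049 (SE) and an edgeR adjusted p of 0.945. With 5058 to 7199 counts per library the interval was 0.947-fold to 1.10-fold. Exons of Bax overlap Gm45808 on the same strand, so reads of both cannot be told apart there. Bax is a known target of p53, and its promoter window was the only 1 of the 15 with the p53 half-site RRRCWWGYYY. It held 1 such half-site, which is only a part of a p53 site, and 8.36% of all windows held the half-site. The 250 bases before the start of Bax (chr7:45466899-45467148, minus strand) are shown with that half-site in capitals.
Bax: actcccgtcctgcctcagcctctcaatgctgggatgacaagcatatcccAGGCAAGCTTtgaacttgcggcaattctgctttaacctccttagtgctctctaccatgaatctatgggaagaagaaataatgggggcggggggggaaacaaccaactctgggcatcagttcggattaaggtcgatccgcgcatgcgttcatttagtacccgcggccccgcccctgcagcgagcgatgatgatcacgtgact

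Bak1 (ENSMUSG00000057789.14, chr17:27019810-27029009, minus strand) had only 113 to 150 counts per library. Its normalized CPM was 5.68 and 5.65 with vehicle and 5.05 and 5.25 with 5D, so both 5D libraries were lower. The means were 5.67 ± 0.0259 and 5.15 ± 0.140, a log2 fold change of -0.14 ± 0.22 (SE) and an edgeR adjusted p of 0.941. The interval was 0.655-fold to 1.26-fold, and the counting intervals of all 4 libraries overlap. Exons of Bak1 overlap Ggnbp1 on the opposite strand.

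The BH3-only genes held the largest differences of the family, in Pmaip1 and Bcl2l11. Bcl2l11 (ENSMUSG00000027381.16, chr2:128126038-128162547, plus strand) encodes BIM, which binds every pro-survival member. It was at 5.04 and 5.90 normalized CPM with vehicle and at 5.42 and 7.97 with 5D. The groups overlapped, since the first 5D library lay between the vehicle libraries and the second lay above all others. In the second 5D library 228 counts gave a counting interval of 6.97 to 9.08, above the 4.58 to 6.37 of the first. The means were 5.47 ± 0.607 and 6.70 ± 1.81, a log2 fold change of 0.30 ± 0.24 (SE) and an edgeR adjusted p of 0.861 with an interval of 0.850-fold to 1.77-fold. Without 5D replicate 2 the log2 fold change was -0.013, and without 5D replicate 1 it was 0.54, so the difference rests on 1 library. FOXO factors, which cytokine signals restrain, are known regulators of Bcl2l11. The FOXO motif GTAAACA was in 2 of the 15 windows, of Bcl2l11 and Bbc3, and in 3.65% of all, and it stands in capitals in the 250 bases before the start of Bcl2l11 (chr2:128125788-128126037, plus strand).
Bcl2l11: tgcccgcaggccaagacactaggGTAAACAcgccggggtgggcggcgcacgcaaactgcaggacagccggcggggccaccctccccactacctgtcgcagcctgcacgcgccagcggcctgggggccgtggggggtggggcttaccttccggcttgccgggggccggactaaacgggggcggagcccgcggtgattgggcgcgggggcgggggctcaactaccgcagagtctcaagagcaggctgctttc

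Pmaip1 (ENSMUSG00000024521.8, plus strand, from 66458533 to 66465565 of chromosome 18) encodes NOXA, a p53-inducible protein that binds MCL1. It was at 15.7 and 12.5 normalized CPM with vehicle and at 18.4 and 17.6 with 5D. Both 5D libraries lay above both vehicle libraries, and the vehicle libraries differed more from each other than the 5D libraries did. The means were 14.1 ± 2.24 and 18.02 ± 0.563, a log2 fold change of 0.35 ± 0.15 (SE) or 1.27-fold with an interval of 1.01-fold to 1.6-fold. Its unadjusted p-value from edgeR was 0.0404, which ranked 1103 among the genes tested, and its adjusted p-value was 0.645. The call at the unadjusted p-value was lost with DESeq2 at 0.0777. It was also lost without vehicle replicate 2, where the log2 fold change was 0.20, without 5D replicate 1 and without 5D replicate 2. Without vehicle replicate 1 the log2 fold change was 0.52 and the unadjusted p-value 0.00677.

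**Figure D3:**
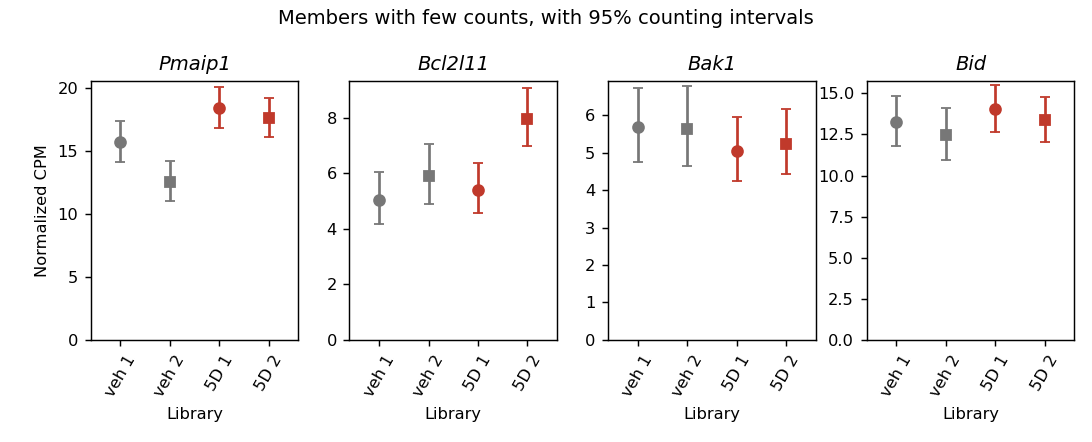
Normalized CPM (y axis, from 0) of the members Pmaip1, Bcl2l11, Bak1 and Bid in each library (x axis), grey for vehicle and red for 5D, with bars for 95% exact Poisson intervals that cover counting error only. Both 5D libraries of Pmaip1 lie above the vehicle libraries, at 18.4 and 17.6 against 15.7 and 12.5, while Bcl2l11 is high in 5D replicate 2 alone.

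The other BH3-only genes varied little. Bbc3 (ENSMUSG00000002083.13, chr7:16308393-16318205, plus strand) encodes PUMA, the other p53-inducible member of this class. It was at 17.3 and 17.3 normalized CPM with vehicle and at 17.5 and 16.9 with 5D, which leaves the vehicle libraries between the 5D libraries. Its log2 fold change was -0.0068 ± 0.13 (SE) at an edgeR adjusted p of 0.997 with an interval of 0.816-fold to 1.21-fold, and its sign turned with TMM scaling and without 5D replicate 2.

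Bid (ENSMUSG00000004446.12, chr6:120891930-120916853, minus strand) links death receptors to the mitochondria once caspase-8 cuts its protein. It was at 13.3 and 12.4 with vehicle and at 14.0 and 13.4 with 5D. The groups did not overlap, yet the gap between the nearest libraries, 13.3 with vehicle and 13.4 with 5D, was far inside their counting intervals. Its log2 fold change was 0.091 ± 0.15 (SE) at an edgeR adjusted p of 0.941, with an interval of 0.851-fold to 1.33-fold. Exons of Bid overlap those of Bcl2l13 on the opposite strand.

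Bad (ENSMUSG00000024959.14, chr19:6941861-6951899, plus strand) is held inactive by AKT and PIM kinases that phosphorylate its protein. It was at 38.0 and 36.8 with vehicle and at 37.3 and 34.5 with 5D, with overlap between the groups. Its log2 fold change was -0.061 ± 0.10 (SE) at an edgeR adjusted p of 0.942 with an interval of 0.824-fold to 1.12-fold. Exons of Bad overlap Gpr137 on the opposite strand.

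The balance of survival and death genes was then followed as ratios of their levels per length in each library, for 7 pairs of known partners, with no test. The Mcl1 to Pmaip1 ratio was 13.5 and 16.6 with vehicle and 11.02 and 11.88 with 5D. Both 5D libraries were lower, at a mean of 0.763 of the vehicle mean. Mcl1 itself was at a mean of 262.7 normalized CPM with vehicle and 258.5 with 5D. The Mcl1 to Bcl2l11 ratio was 77.5 and 65.1 with vehicle and 69.2 and 48.5 with 5D, and only the second 5D library was low.

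The Bcl2 to Bax ratio, a classical readout of this balance, was 0.0481 and 0.0511 with vehicle and 0.0482 and 0.0459 with 5D, with overlap. The Bcl2l1 to Bax ratio was 0.150 and 0.147 with vehicle and 0.139 and 0.136 with 5D, a mean of 0.925 of the vehicle mean with no overlap. Mcl1 to Bak1 was higher in both 5D libraries, at 35.2 and 34.9 against 32.6 and 32.2 with vehicle. Bak1 had only 113 to 150 counts per library, with counting intervals that overlap, and Mcl1 itself overlapped between the groups. Bcl2l1 to Bad overlapped at 1.346 to 1.404. Bcl2 to Bcl2l11 was 10.9 and 10.0 with vehicle and 10.6 and 6.64 with 5D, where again the second 5D library stood low. By class, the summed levels per length of the 3 pro-survival genes were 121.7 to 122.3 with vehicle and 118.4 to 118.5 with 5D. Those of the 2 effector genes overlapped, at 228.2 and 232.1 with vehicle and 238 and 231.1 with 5D. The 5 BH3-only genes also overlapped, at 44.5 to 47.6. Beside these ratios and sums stand the 37.6% of single genes tested that did not overlap between the groups.

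**Figure D4:**
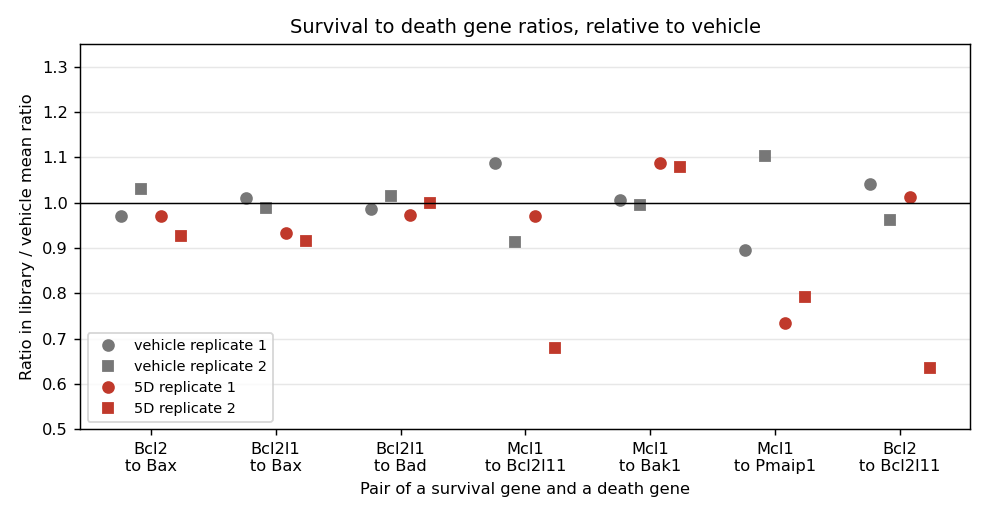
Ratio of a survival gene to a death gene in each library divided by the mean ratio of the vehicle libraries (y axis), for 7 pairs (x axis), grey for vehicle and red for 5D. The Mcl1 to Pmaip1 ratio is lower in both 5D libraries, while the ratios to Bcl2l11 are low in 5D replicate 2 alone.

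The rest of the family was read from a list of 15 genes, of which 13 were tested and Bcl2l10 and Hrk were not analysed here. The list also holds Mtch2 and Vdac2, which are not BCL2 family proteins. Of the 13, 9 were higher and 4 lower, and their median of 0.060 on the log2 scale was the value of Mtch2. At an unadjusted p-value 0 were higher and 1 lower, beside 3.84% of all genes lower. Vdac2, the mitochondrial channel that holds BAK, was abundant at 311.4 and 304.3 mean normalized CPM. Bcl2a1d, of the pro-survival A1 group, had 229 to 313 counts per library and a log2 fold change of -0.035 ± 0.16 (SE), but its near-identical copies Bcl2a1a and Bcl2a1b share reads with it, so the split between them is uncertain. The gene called was Bcl2l14, which counted 10 and 22 with vehicle but 6 and 3 with 5D. Its ratio of 5D to vehicle was 0.219, with a counting interval of 0.0920 to 0.470, and its adjusted p-value was 0.598 by edgeR. The count of 1 became 0 with DESeq2 and without 5D replicate 2, and 2 without either vehicle library.

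Downstream of the family, all 19 listed genes of caspases, the apoptosome and inhibitors of apoptosis were tested, with 5 higher, 14 lower and a log2 median of -0.038. At an unadjusted p-value 0 were higher and 1 was lower, a share near the 3.84% of all genes lower. The latter was Birc6, a large inhibitor of apoptosis, at 120.1 mean normalized CPM with vehicle and 104.8 with 5D (log2 fold change -0.20 ± 0.065 SE, edgeR adjusted p = 0.550). Its exons overlap Gm26749 on the opposite strand. The count of 1 became 0 without 5D replicate 1, and 2 without vehicle replicate 2 or 5D replicate 2. The highest per length was Cycs, which encodes cytochrome c, with a log2 fold change of -0.024 ± 0.041 (SE). It shares near-identical stretches with 4 genes. Of 15 genes of the death receptor branch 14 were tested, 6 higher and 8 lower with a median of -0.0093, and 0 were called at an unadjusted p-value by edgeR, against 0 to 2 under the alternatives. The exception to testing was Fasl, at 0 or 1 count per library. Ripk3, a kinase of necroptosis, was the highest of these per length, at 126.1 normalized CPM per kb with vehicle and 121.6 with 5D.

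Of 30 regulators of the family 29 were tested (Trp63 was at 0 counts), 13 higher and 16 lower with a median of -0.014, and at an unadjusted p-value 0 were higher and 5 lower, beside a background of 3.84% lower. These were Il2ra and Il2rb, chains of the IL-2 receptor, and the kinases Pim1, Pim2 and Akt1, which act downstream of such receptors. The count of 5 became 4 with TMM or the DESeq2 Wald test. It became 6 with limma-voom, without the filter, with a replicate block or with upper quartile factors taken after the filter. It went up or down when some libraries were left out. Il2ra went from 2144 to 1822 mean normalized CPM (log2 fold change -0.23 ± 0.041 SE, edgeR adjusted p = 0.0878), Il2rb from 461.7 to 414.4 and Pim1 from 383.8 to 333.2. Their log2 fold changes were -0.16 for Il2rb, -0.20 for Pim1, -0.19 for Pim2 and -0.12 for Akt1, all with adjusted p-values above that of Il2ra. Over the whole list 5D was above vehicle without overlap in 3 genes and below in 10, and 16 overlapped, where 37.6% of all genes did not overlap. The list's median was between -0.041 and -0.029 when any 1 library was left out, lowest without vehicle replicate 1. The other receptor chains Il7r and Il2rg had log2 fold changes of 0.0093 and 0.0023, and Stat5a, Stat5b and Trp53 had 0.051, 0.0056 and -0.0038. Ywhaz, which encodes a 14-3-3 protein that holds phosphorylated BAD, was the highest per length with 0.032.

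The 3 members under p53, Pmaip1, Bbc3 and Bax, were set beside 20 other p53 target genes. All 20 were tested, with 13 higher, 7 lower and a log2 median of 0.061, and at an unadjusted p-value 3 were higher and 0 lower, beside a background of 3.5% higher. Adjusted over all genes 0 passed by edgeR. Ccng1 went from 341.1 to 396.3 mean normalized CPM (log2 fold change 0.22 ± 0.057 SE, edgeR adjusted p = 0.421) and Phlda3, which restrains AKT, from 30.1 to 38.2 (log2 fold change 0.34 ± 0.11 SE, edgeR adjusted p = 0.530). Eda2r, a member of the TNF receptor family, had 1 and 2 counts with vehicle and 14 and 20 with 5D. This is a ratio of 8.83 with a counting interval of 2.78 to 44.9, and its adjusted p-value was 0.530 by edgeR. Other well known targets were not called, with log2 fold changes of 0.053 for Cdkn1a, the highest of the list per kb of the longest transcript (Ccng1 was higher per kb of all exons, at 105.0 against 83.5), and 0.068 for Mdm2. Of the 20, both 5D libraries lay above vehicle in 6 and below it in 5 (Zmat3, Aen, Gtse1, Btg2 and Rrm2b), and 9 overlapped, beside the 37.6% of all genes that did not overlap. The list's median fell to 0.029 without vehicle replicate 2.

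**Figure D5:**
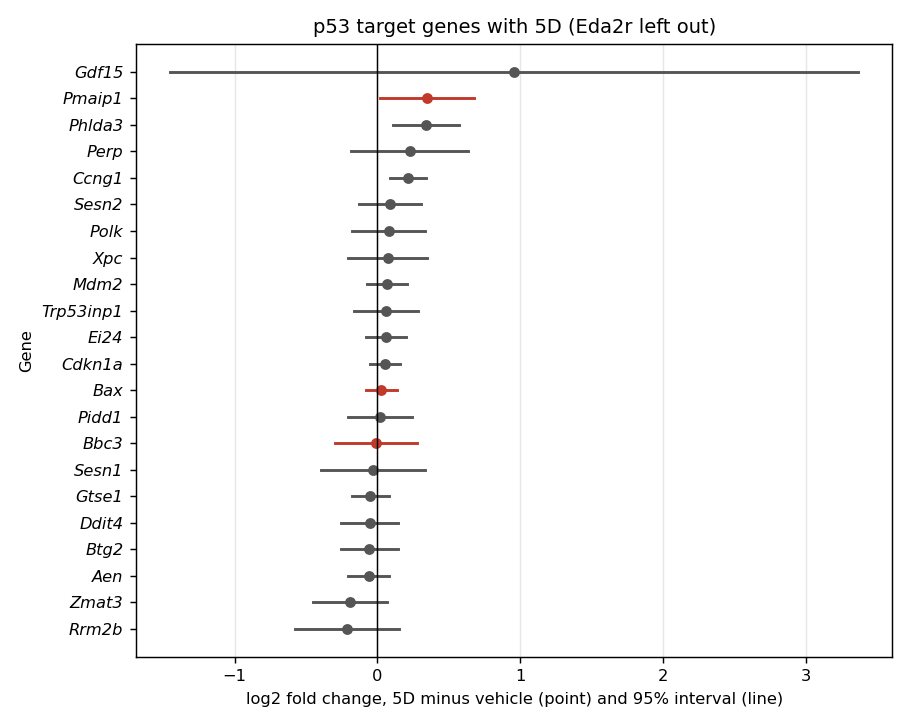
Log2 fold change of 5D against vehicle with its 95% interval (x axis) for 19 p53 target genes in grey and the members Pmaip1, Bax and Bbc3 in red (y axis), ordered by estimate, without Eda2r, which had 3 counts in both vehicle libraries together. The intervals of Pmaip1, Phlda3 and Ccng1 lie above 0, and the wide interval of Gdf15 comes from few counts.

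Last, 16 calcium and membrane partners of the family were all tested, since BCL2 proteins also act on calcium release at the endoplasmic reticulum. Of these 7 were higher and 9 lower with a median of -0.0030, and at an unadjusted p-value 0 were higher and 2 lower, beside 3.84% of all genes lower. The genes called were Itpr2, an IP3 receptor through which calcium leaves the endoplasmic reticulum, and Bnip3, a mitochondrial relative of the BH3-only proteins. Itpr2 went from 210.1 to 182.3 mean normalized CPM (log2 fold change -0.20 ± 0.073 SE, edgeR adjusted p = 0.566). Bnip3 went from 76.2 to 65.5 (log2 fold change -0.22 ± 0.075 SE, edgeR adjusted p = 0.556). It shares near-identical stretches with 5 genes, of which Gm45507 overlaps its exons on the opposite strand, so reads may be shared. Itpr1 and Itpr3, which encode the other IP3 receptors, had log2 fold changes of -0.10 and 0.055. Bcap31, the highest per length, had -0.0047. The count of 2 became 1 without either 5D library, and 4 with upper quartile factors taken after the filter.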

How the data were processed

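RNA was sequenced from sorted lung ILC2s in 2 vehicle and 2 5D libraries. By the study's methods, the authors made cDNA with a low-input kit, aligned reads with STAR to mm10 with GENCODE M21 and quantified them in Partek, and they deposited estimated counts per gene before normalization. Between 51.5% and 54.6% of a library's values were whole numbers. The submitters' processing notes name STAR 2.6.1 and CASAVA 1.8.2. The planned test was for whole counts, so the values were rounded. Upper quartile factors were taken over all genes, and the filter kept genes averaging 1 or more normalized counts and summing to 10 or more, which left 17650 genes and removed 4904. These were tested with edgeR 4.0.16 in R 4.3.3 by the quasi-likelihood test without covariates, with p-values adjusted by Benjamini-Hochberg across all 17650. The SE of a log2 fold change was its size divided by the root of F, and intervals are at 95%. Counting intervals are exact (Poisson, or conditional binomial for a ratio) and cover counting error only.

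The members and gene lists were chosen with earlier results of these data known, so lists are described by counts and medians. Named are all 10 members, the genes of each list at an unadjusted p-value under 0.05 and its highest gene per length, while others were chosen after their values were seen. An exact permutation test of 2 against 2 libraries cannot go below 0.333, and none was run. Replicates differed by more than counting error, with a chi-square per gene of 6.97 in the vehicle pair and 8.11 in the 5D pair. Alternatives were TMM, DESeq2 1.42.0 size factors and Wald test, the upper quartile after the filter, limma-voom (limma 3.58.1), no filter, filterByExpr, a replicate block, thinned libraries, a threshold of 0.01, the length of all exons and leaving out each library. BLAST 2.17.0 found genes that share near-identical stretches of at least 150 nt at 95% identity. The code was tested on simulated data. Plots were made in Python 3.11.15 (matplotlib 3.10.9). The study's own Gene Set Analysis test was not run. RNA input is 10 ng in the labels and 10 pg in the methods.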

Additional observations from a re-analysis of the deposited data

How the results depend on the processing

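The count of 0 members past an adjusted p-value of 0.05 was 0 under all 13 alternative fits, although DESeq2 gave no adjusted p-value for 5 of the 10 (Bak1, Bcl2l11, Bbc3, Pmaip1 and Bid). The 1 member past an unadjusted p-value of 0.05, Pmaip1, became 0 with the DESeq2 Wald test and 0 at a threshold of 0.01, and between 0 and 1 when a library was left out, where the lone library of a group is assumed to vary like the other group. The cause was not tested. With a library left out, the log2 fold change ran from -0.11 to 0.0082 for Bcl2 (above 0 without the second library of either group, 0.0073 for 5D), from -0.013 to 0.54 for Bcl2l11 (below 0 without 5D replicate 2) and from -0.036 to 0.017 for Bbc3 (above 0 without 5D replicate 2). Bbc3 was also above 0, at 0.0024, with TMM. No other member turned. With the length of all exons the vehicle ratios became 0.0558 for Bcl2 to Bax, 0.119 for Bcl2l1 to Bax, 1.29 for Bcl2l1 to Bad, 113.7 for Mcl1 to Bcl2l11, 32.7 for Mcl1 to Bak1 and 13.1 for Bcl2 to Bcl2l11, while the differences between groups do not depend on length. The fit with a replicate block gave 1 member past the unadjusted p-value and a median log2 fold change of -0.015, and it changed no call on a member. The deviations of like-numbered libraries correlated at 0.038 over 10150 genes. That value cannot tell whether like-numbered libraries shared animals or cultures, and no pairing was assumed in the main fit. Over all genes, the 17 past the adjusted p-value became 58 with DESeq2, 46 without the filter, 41 with the replicate block, 32 with limma-voom, 26 with filterByExpr, 180 without vehicle replicate 1 and 79 without vehicle replicate 2, and the 1296 past the unadjusted p-value became 778 with DESeq2. The median of the list of other BCL2 family genes, with Mtch2 and Vdac2, turned to -0.0085 without vehicle replicate 1 and -0.025 without 5D replicate 2. That of the calcium partners turned to 0.023 without 5D replicate 1 and 0.0063 with TMM, and was as low as -0.036 without 5D replicate 2. Bak1 and Bcl2l11 had the fewest counts of the members, at most 150 and 228 in a library.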
